A study of Mus musculus with 18 samples.

Results

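Replication-dependent histone genes encode the bulk of the histones laid down on newly made DNA. In the RNA-seq of mouse spinal cord described here, they were taken as every locus with 1 gene symbol that starts with Hist1h, Hist2h, Hist3h or Hist4h, is not marked as a pseudogene by its symbol, and reached FPKM 1 in at least 1 group. FPKM is the number of fragments per kilobase of transcript, scaled to depth. The rule found 55 genes of 58570 loci, with 5 genes for the linker histone H1, 15 for H2a, 15 for H2b, 10 for H3 and 10 for H4. A further 9 loci matched by name but stayed under FPKM 1 in all 6 groups. At the threshold, the lowest 2 genes kept, Hist2h2aa1 and Hist1h2ah, peaked at 2.02 and 2.27 FPKM, and the highest 2 left out, Hist1h4m and Hist2h3c2, peaked at 0.874 and 0.584 FPKM.

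Whole spinal cords of the SMNdelta7 strain, a mouse model of spinal muscular atrophy (SMA), were sampled at postnatal days 2, 6 and 10 (P2, P6 and P10). Homozygotes formed the SMA groups and heterozygotes formed the control groups. Affected pups of this strain are known to lack the mouse gene Smn1 and to carry human SMN transgenes. Per the labels there were 18 libraries, 3 for each of the 6 groups, made from total RNA after ribosomal RNA removal with a stranded kit, which retains RNA without a poly(A) tail. The labels do not say whether each library came from its own animal. The deposited tables give 1 value per gene and group with a model interval, so no value has a replicate standard deviation.

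Proliferating cells make replication-dependent histone mRNA in S phase, when DNA is copied, and destroy it when S phase ends. These mRNAs end in a short stem-loop in place of a poly(A) tail. The stem-loop-binding protein, encoded by Slbp, holds it, and the U7 small nuclear ribonucleoprotein, which contains Lsm10 and Lsm11, guides the cleavage that makes the end. The U7 core ring is assembled by the SMN complex, whose central protein is the one reduced in SMA. In the postnatal spinal cord the dividing cells are mostly glial progenitors, and neurons have left the cell cycle.

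The stem-loop is the feature the mRNAs of this family share, so its variants are shown first, one gene per variant, 5′ to 3′, with the paired stem bases in capitals and the loop in lower case. A transcript was scored as holding it where GGNNNTTNNNANNNCC occurred on the transcript strand with its first 6 bases the reverse complement of its last 6. Sequences are from GENCODE M21 transcripts on GRCm38.

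Hist1h1e: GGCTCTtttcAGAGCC

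Hist2h2ac: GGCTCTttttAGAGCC

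Hist1h2bb: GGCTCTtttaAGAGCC

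Hist1h3g: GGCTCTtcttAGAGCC

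Hist1h4d: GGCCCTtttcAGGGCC

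Hist1h4a: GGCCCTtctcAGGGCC

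Hist1h4i: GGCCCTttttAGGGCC

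Hist1h4b: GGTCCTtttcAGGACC

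The motif was in the annotated transcript of 37 of the 55 genes, against 144 of 21877 protein-coding genes (0.658%). That background includes histone genes, since 42 of the 64 histone loci matched by name, at any level, held the motif. It was found in 3 of 5 H1, 8 of 15 H2a, 10 of 15 H2b, 7 of 10 H3 and 9 of 10 H4 genes. Every stem found in H1, H2a, H2b and H3 genes read GGCTCT on its 5′ side. The H4 genes differed, with GGCCCT in 7 and GGTCCT in 2. A gene without a match has only those letters missing from its annotated transcript, which for several members ends at or near the stop codon. In 18 of the 37 the annotation ran on for 100 bases or more after the stem-loop.

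Promoters of 49 of the 55 genes were matched in the RefSeq table for GRCm38.p6, which covers 250 bases before and 50 after the start. All 40 promoters outside the H4 class held CCAAT on either strand, against 2 of 9 H4 promoters and 37.4% of all 32851 promoters. The octamer ATTTGCAT, known from H2B promoters, was in 5 of 13 H2b and 5 of 14 H2a promoters and in none of the other 3 classes, against 1.74% of all promoters. AAACACA, an element known from H1 promoters, was in 4 of 5 H1 promoters, against 7.18% of all. TATAAA was in 32 of the 49, against 13.6% of all. Both strands were searched for each motif, and the motifs do not contain each other. Some H2a and H2b genes start close together on opposite strands, so their promoters overlap and the same match can count in both classes. Hist1h2ae and Hist1h2bg overlap in this way and both hold the octamer, as do Hist1h2ah and Hist1h2bk. The counts are therefore not of separate stretches of DNA. Below are 3 promoters, of the H1 and H4 genes with the highest level in their class and of Hist1h2bg, which is shown for its octamer. Matches are in capitals, with ATTGG the reverse strand of CCAAT.

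Hist1h1e, chr13:23622509-23622808, minus strand: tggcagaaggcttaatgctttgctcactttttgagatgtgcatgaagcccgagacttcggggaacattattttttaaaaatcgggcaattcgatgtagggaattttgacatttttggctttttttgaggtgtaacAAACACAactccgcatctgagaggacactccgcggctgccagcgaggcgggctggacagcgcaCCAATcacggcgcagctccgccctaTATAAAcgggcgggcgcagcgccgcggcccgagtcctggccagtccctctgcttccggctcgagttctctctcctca

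Hist1h2bg, chr13:23571150-23571449, plus strand: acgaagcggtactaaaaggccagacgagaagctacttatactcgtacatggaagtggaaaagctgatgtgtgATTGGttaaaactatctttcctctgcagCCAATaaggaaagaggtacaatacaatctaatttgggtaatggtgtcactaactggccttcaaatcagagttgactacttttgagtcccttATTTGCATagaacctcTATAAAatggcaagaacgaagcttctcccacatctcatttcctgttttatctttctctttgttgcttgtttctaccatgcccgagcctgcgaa

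Hist1h4d, chr13:23581318-23581617, plus strand: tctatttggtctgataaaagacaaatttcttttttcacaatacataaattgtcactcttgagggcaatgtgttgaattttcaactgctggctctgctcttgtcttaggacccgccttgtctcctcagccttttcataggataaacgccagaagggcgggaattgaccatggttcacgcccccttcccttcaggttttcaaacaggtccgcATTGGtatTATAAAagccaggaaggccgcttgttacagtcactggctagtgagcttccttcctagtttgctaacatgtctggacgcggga

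The genes are clustered, with 47 on chromosome 13, 6 on chromosome 3, 1 on chromosome 6 and 1 on chromosome 11. In the H2a and H2b classes, 9 pairs were divergent, with starts 176 to 302 bp apart. Copies resemble each other closely, and 25 of the 55 shared 50% or more of their 50-base stretches with other annotated genes. The median share was 67.6% in H2a genes and 2.25% in H1 genes. How the authors assigned fragments that fit several genes is not given in the sources used here, so the split among copies is uncertain and class sums are given beside single genes.

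The group labels need a caution before any comparison. Smn1 stood at 0.0210 FPKM in SMA cords at P2, was listed at 0 at P6 and stood at 2.82 FPKM in the P10 group labelled SMA, against 2.70, 4.46 and 3.54 FPKM in control cords. The P10 group labelled SMA therefore goes against its label on this gene. The 11 mature oligodendrocyte markers measured summed to 3676, 2175 and 4523 FPKM in SMA cords at P2, P6 and P10, against 295, 1925 and 8064 FPKM in control cords. All 11 were higher in SMA at P2 and none at P10, so the SMA groups at P2 and P10 stand apart from an ordered age course. The part of this in the histone results was not tested, and results are given with and without those ages. At P6 Smn1 followed the labels. The 10 oligodendrocyte markers tested there were also all higher in SMA, but with a median log2 ratio of 0.17, against 3.71 at P2.

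The 55 genes together held 3211 to 4376 estimated fragments per SMA group and 3139 to 4597 per control group, of totals between 6881671 and 7386338. The 15 H2a genes shared only 249 to 323 of them in SMA groups and 272 to 380 in control groups. Of the 55, 52 reached FPKM 1 in all 6 groups. Errors of ratios between single groups are standard errors derived from the authors' interval, with a median over the 55 genes of 0.73 to 0.79 on the log2 scale. Errors across ages or genotypes come from limma on log2(FPKM + 1), where the 3 ages or both genotypes stand in for replicates, and p-values measure only the spread between these values. The limma values of low genes understate their change.

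The family was led by a few genes. The summed level of all 55 was 1084, 1173 and 781 FPKM in SMA cords at P2, P6 and P10, against 1234, 1290 and 790 FPKM in control cords. Hist1h4d had the highest mean level over the 6 groups, at 171 FPKM, followed by Hist1h4h at 72.6, Hist1h1e at 66.6 and Hist3h2ba at 63.1 FPKM. The 2 most abundant genes took 22.3% to 23.9% of the sum in a group, and the 10 most abundant took 50.3% to 53.5%. H4 was the class with the largest share, at 32.6% to 34.95% of the sum in SMA groups and 33.2% to 34.3% in control groups. H2b followed with 22.3% to 23.6% in SMA groups and 22.6% to 23.5% in control groups. The shares of these 2 classes thus differed little between ages and genotypes. H1 took 16.1%, 17.9% and 17.2% in SMA at P2, P6 and P10, against 14.8%, 16.1% and 17.7% in control. H3 took 12.9%, 13.7% and 13.5% in SMA, against 13.5%, 14.2% and 12.4% in control. The H2a share was 12.1% to 13.3% in SMA groups and 13.3% to 13.9% in control groups.

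**Figure D1:**
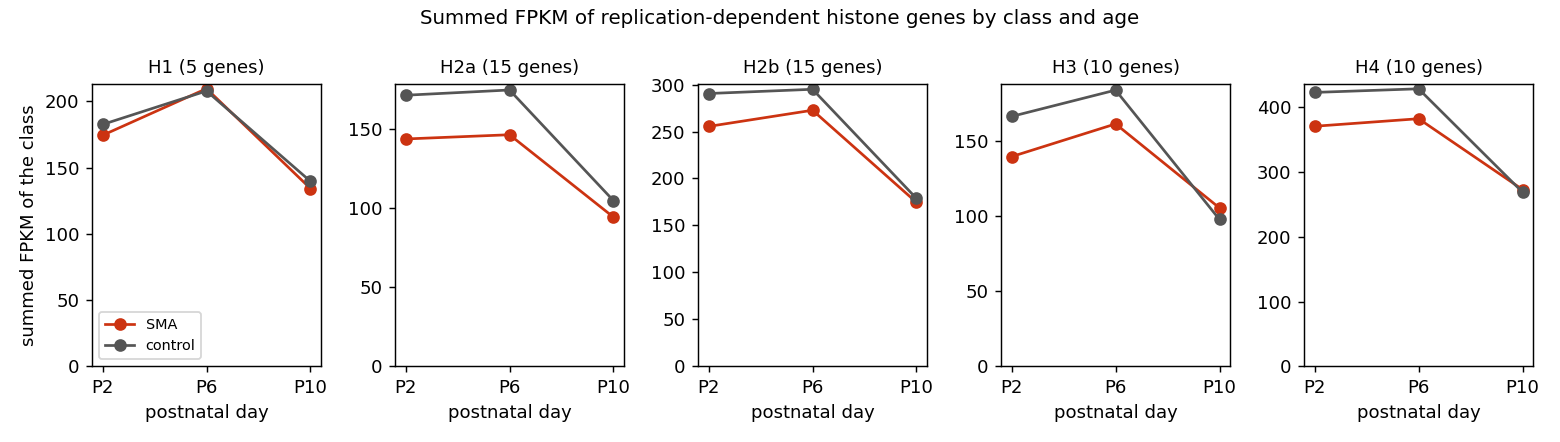
Summed FPKM (y axis, from 0) of the genes of each histone class at P2, P6 and P10 (x axis), with SMA groups in red and control groups in grey, 1 value per group. All 5 classes are lowest at P10 in both genotypes, from 94.4 FPKM for H2a in the P10 group labelled SMA to 273 FPKM for H4 in the same group.

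The clearest pattern was with age, and it lay between P6 and P10. From P2 to P6 the levels differed little, and at P10 they were lower in every class and both genotypes. No gene passed the threshold, which was an adjusted p under 0.05 over all loci tested. In the limma fit across genotypes, a contrast added after the data were seen, 53 of the 55 genes were lower at P10 than at P6, against 46.5% of all 21962 loci, with a median log2 ratio of -0.64 against 0.02 for all loci. Of the 55, 40 had an unadjusted p under 0.05, all of them lower, against 2.9% of all loci in that direction. The adjusted limma count was 0 of 55, with 0.0137% of all loci called, and the smallest adjusted limma p was 0.247, for Hist1h2af. Many genes had ratios of the same sign and similar size, but limma had 2 residual degrees of freedom.

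Within each genotype the ratios were close to those of the joint fit. In the P10 group labelled SMA, 51 of 55 genes were below P6, with a median of -0.53, against 47.8% of all loci and a median of 0.02. In control cords 51 of 55 were below P6, with a median of -0.75, against 47.2% of all loci and a median of 0.03. The z test from the authors' intervals called 0 of 55 in both genotypes, with 0.0398% of all loci called in SMA and 0.0751% in control. It gave unadjusted p under 0.05 for 2 genes in SMA, Hist1h1c and Hist1h2af, and for 1 in control, Hist1h3b, against 0.324% and 1.12% of all loci. Hist1h2af, an H2a gene, and Hist1h3b, an H3 gene, were named after their values were seen. The control values do not rest on the SMA groups whose markers stood apart.

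From P2 to P6 the genes were near level or slightly higher. In SMA cords 34 of 55 were above P2 at P6, with a median of 0.08, and in control cords 38 of 55, with a median of 0.10. All loci were above P2 at P6 in 56.4% of cases in SMA and 49.7% in control, with medians of 0.04 and 0.00. The z test called 0 of 55 in each genotype, with 0.0312% of all loci called in SMA and 0.112% in control. It gave none of the 55 an unadjusted p under 0.05, against 0.234% of all loci in SMA and 0.637% in control. In the limma fit 38 of 55 were higher, against 54.1% of all loci, and 8 had an unadjusted p under 0.05, 6 of them higher, against 4.24% of all loci in either direction. None of the 55 was called by limma, with 0.00911% of all loci called. The level was highest at P6 in 32 of 55 genes in SMA and 36 of 55 in control, against 30% and 23.6% of all loci.

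**Figure D2:**
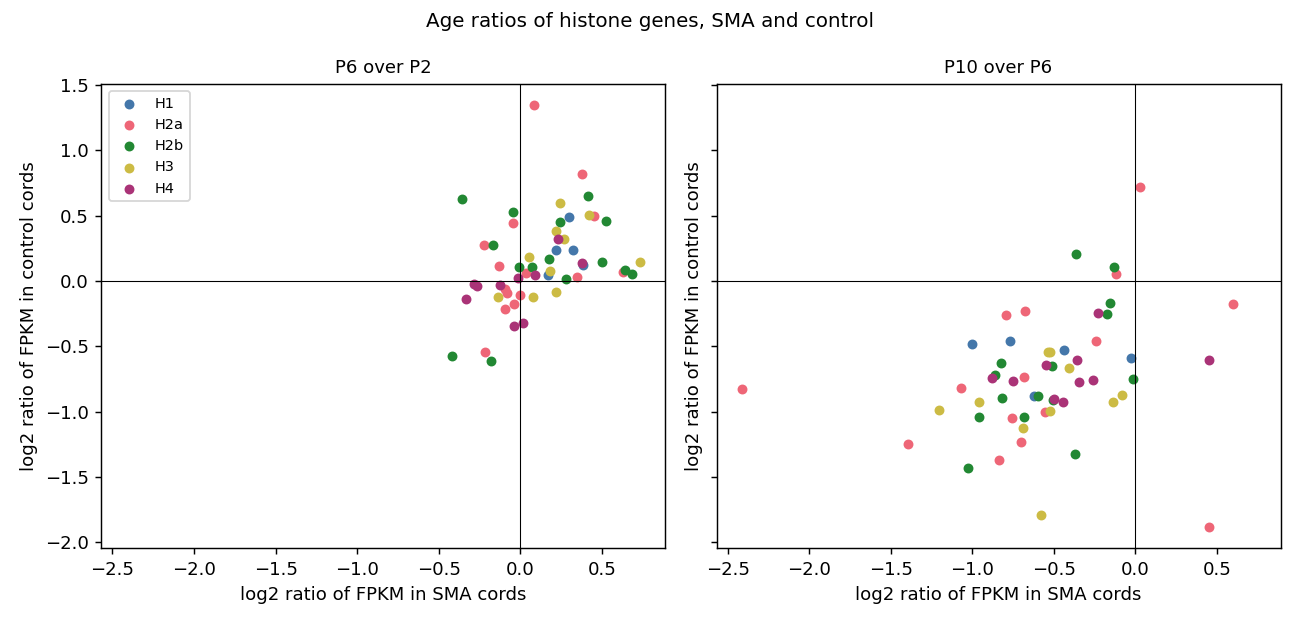
Log2 ratio of FPKM for each of the 55 genes in SMA cords (x axis) and control cords (y axis), for P6 over P2 (left) and P10 over P6 (right), coloured by class. On the left the points lie around 0 with medians of 0.08 in SMA and 0.10 in control, and on the right most lie below 0 on both axes with medians of -0.53 in SMA and -0.75 in control.

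Set directly against P2, P10 was lower in 45 of 55 genes in the group labelled SMA and in 51 of 55 in control, against 43.3% and 48.2% of all loci. The median log2 ratio was -0.42 in SMA and -0.61 in control, against 0.05 and 0.02 for all loci. The summed level at P10 was 0.721 times that at P2 in SMA and 0.640 times in control. Taken from estimated fragments in place of FPKM, the SMA median was -0.21 and the control median -0.54. Both genotypes were lower at P10 for 44 genes, 80% of the 55, against 26% of all loci. The z test called 0 of 55 in each genotype, with 0.0602% of all loci called in SMA and 0.631% in control. Unadjusted p under 0.05 was reached by no gene in SMA, against 0.331% of all loci, and by 1 in control, the H4 gene Hist4h4, against 3.51%. Hist4h4 was named after its value was seen. In limma 48 of 55 were lower, against 43.4% of all loci. Of the 55, 36 had an unadjusted p under 0.05, against 15.4% of all loci, and 0 were called, with 0.0137% of all loci called.

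By class, the P10 over P2 median in control was -0.36 for H1, -0.55 for H2a, -0.59 for H2b, -0.77 for H3 and -0.62 for H4. In SMA it was -0.29, -0.60, -0.32, -0.26 and -0.48 in the same order. Differences between classes were not tested. The ranges of the classes overlapped in each genotype.

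H4 and H3 form the tetramer at the centre of the nucleosome. Hist1h4d, the most abundant gene of the family, stood at 173, 184 and 126 FPKM in SMA cords at P2, P6 and P10, against 202, 208 and 133 FPKM in control cords. Its interval in control ran from 33.6 to 369 FPKM at P2 and from 24.3 to 242 FPKM at P10, so all 6 intervals overlapped. Hist1h4h stood at 77.4, 76.7 and 59.9 FPKM in SMA cords, against 82.7, 83.8 and 55.2 FPKM in control cords. P10 was the lowest age of both genes in each genotype. Hist1h4a stood at 27.0, 24.7 and 17.5 FPKM in SMA cords, against 29.8, 29.2 and 15.7 FPKM in control cords. The extremes of the class for P10 over P2 in control were Hist1h4b at -0.45 ± 0.59 (SE) and Hist1h4k at -1.25 ± 1.14. Hist1h4b, which carries the GGTCCT stem, stood at 18.6, 21.9 and 13.0 FPKM in SMA cords, against 21.6, 27.0 and 15.8 FPKM in control cords.

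Among H3 genes, Hist1h3a was the most abundant. It stood at 29.3, 33.2 and 17.1 FPKM in SMA cords at P2, P6 and P10, against 33.1, 34.9 and 18.3 FPKM in control cords. Its log2 ratio of P10 over P6 was -0.96 ± 0.51 in SMA and -0.93 ± 0.53 in control, so the size was alike in both genotypes. Hist1h3c stood at 21.6, 25.2 and 17.6 FPKM in SMA cords, against 23.6, 30.8 and 15.4 FPKM in control cords. Hist2h3b, of the cluster on chromosome 3, stood at 18.8, 21.9 and 9.52 FPKM in SMA cords, against 26.6, 25.1 and 12.6 FPKM in control cords. It was below control at every age, with the lowest values of both genotypes at P10. The extremes in control were Hist1h3g, with a P10 over P2 ratio of -0.07 ± 0.78, and Hist1h3h, at -1.29 ± 0.97. Hist1h3h had low levels, at 3.59, 4.82 and 3.22 FPKM in SMA cords, against 3.71, 5.28 and 1.52 FPKM in control cords.

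H2a and H2b pair as the dimers on either face of the tetramer. Hist2h2ab stood at 24.2, 20.8 and 9.92 FPKM in SMA cords at P2, P6 and P10, against 31.6, 21.7 and 12.3 FPKM in control cords. Unlike most of the family, it was lower at each successive age in both genotypes, with a P10 over P2 ratio of -1.28 in SMA and -1.36 ± 0.81 in control. Its neighbour Hist2h2ac stood at 22.3, 20.9 and 13.0 FPKM in SMA cords, against 28.2, 27.1 and 16.3 FPKM in control cords. Hist1h2ak stood at 18.3, 18.7 and 15.9 FPKM in SMA cords, against 19.2, 20.1 and 14.6 FPKM in control cords. These were the 3 most abundant H2a genes. Hist1h2ah, at 1.24, 1.16 and 1.07 FPKM in SMA cords, against 2.27, 1.956 and 2.03 FPKM in control cords, was nearly level with age.

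The H2b class held the gene with the lowest P10 over P2 ratio in control. Hist3h2ba, on chromosome 11, stood at 87.2, 65.3 and 37.1 FPKM in SMA cords, against 93.0, 62.3 and 33.6 FPKM in control cords. It was lower at each successive age, with a P10 over P2 ratio of -1.23 in SMA and -1.47 ± 1.34 in control. In limma it had the smallest adjusted p of the family for P10 against P2, at 0.107. Hist1h2bg, whose promoter is printed above, stood at 28.0, 31.7 and 16.3 FPKM in SMA cords, against 33.4, 37.6 and 18.3 FPKM in control cords. Hist1h2bb stood at 25.03, 29.6 and 18.5 FPKM in SMA cords, against 25.2, 34.6 and 16.8 FPKM in control cords. Both peaked at P6 and were lowest at P10 in each genotype.

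Only 3 genes were above P2 at P10 in both genotypes, and none of these differences exceeded its error by enough to pass the test. Hist1h2bc, an H2b gene, stood at 22.8, 32.8 and 25.5 FPKM in SMA cords, against 16.2, 22.2 and 25.7 FPKM in control cords. Its P10 over P2 ratio was 0.16 in SMA and 0.67 ± 1.58 in control. No stem-loop was found in its annotated transcript, which belongs to a gene that spans 8710 bp. Hist1h2ac, the H2a gene that starts 251 bp away on the other strand, had ratios of -0.60 ± 2.54 in SMA and -0.55 ± 2.85 in control. The pair thus differed in sign in both genotypes, a difference that was small beside these errors and was not tested. Other divergent pairs differed in sign in SMA only. Hist2h2aa1, an H2a gene near the detection threshold, stood at 1.39, 1.81 and 1.84 FPKM in SMA cords, against 0.697, 1.23 and 2.02 FPKM in control cords. Hist1h2al, which GENCODE M21 annotates as a processed pseudogene, stood at 8.02, 6.88 and 10.4 FPKM in SMA cords, against 12.8, 15.5 and 13.7 FPKM in control cords.

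H1 binds the linker DNA between nucleosomes. All 5 H1 genes were highest at P6 in both genotypes. Hist1h1e stood at 71.0, 80.0 and 47.0 FPKM in SMA cords, against 72.2, 74.7 and 54.5 FPKM in control cords. Hist1h1c stood at 34.9, 45.5 and 22.7 FPKM in SMA cords, against 29.9, 32.5 and 23.3 FPKM in control cords. Its P10 over P6 ratio in SMA, -1.002 ± 0.43, was the only H1 ratio with an unadjusted z test p under 0.05. Hist1h1d stood at 33.9, 42.5 and 27.7 FPKM in SMA cords, against 38.7, 45.8 and 24.8 FPKM in control cords. Hist1h1a stood at 20.3, 24.96 and 24.5 FPKM in SMA cords, against 24.7, 34.8 and 23.1 FPKM in control cords. Its order of ages differed from that of the other H1 genes named here only in SMA, where its P10 over P2 ratio was 0.27 ± 0.51.

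**Figure D3:**
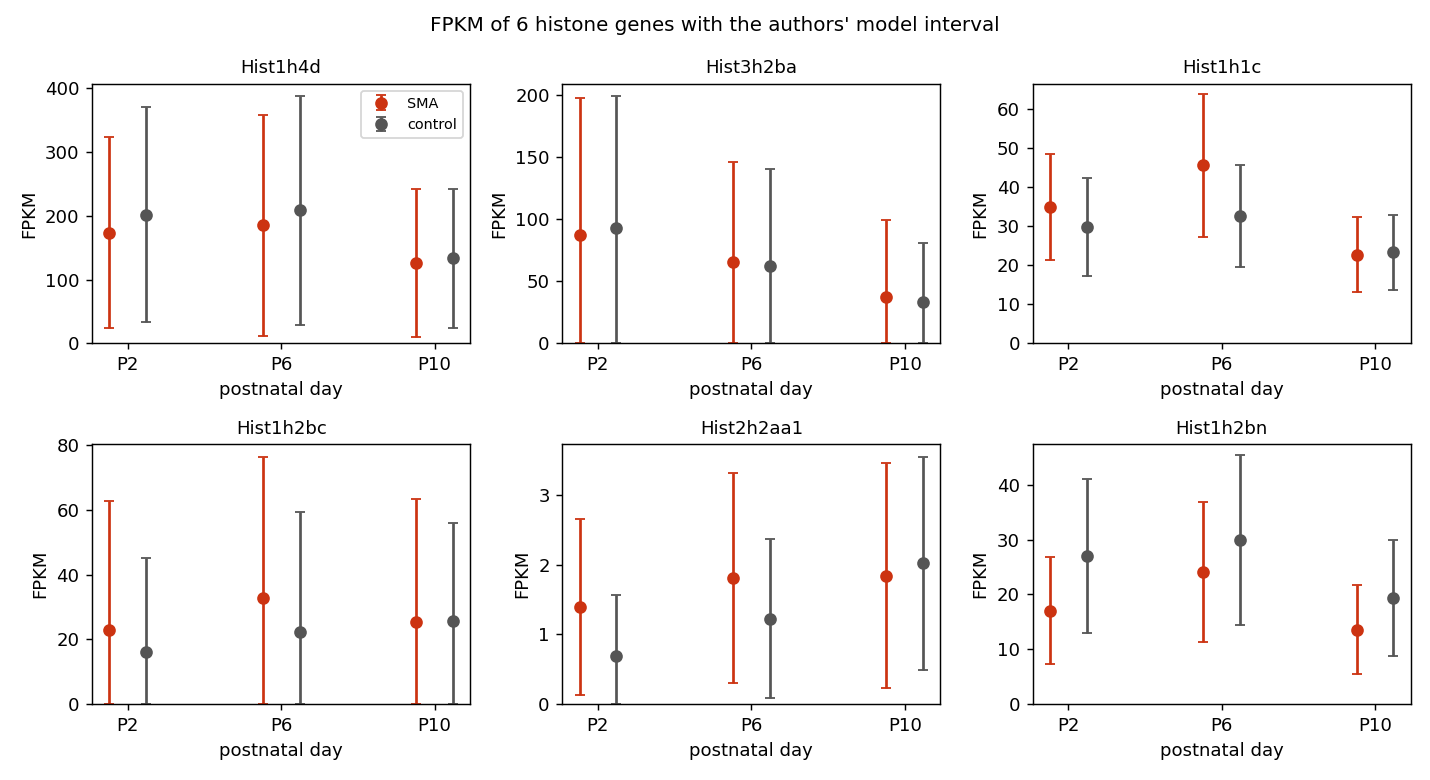
FPKM (y axis, each panel from 0 on its own scale) of 6 histone genes at P2, P6 and P10 (x axis) in SMA (red) and control (grey) groups, with bars for the authors' model interval around each group value. Within each gene the bars of all groups overlap, and in control cords Hist1h2bc and Hist2h2aa1 are highest at P10 (25.7 and 2.02 FPKM) while the other 4 genes are lowest there.

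At P2 and P6 most of the genes were slightly lower in SMA cords, and at P10 they were evenly split. At P2, 47 of 55 were lower in SMA, against 51% of all loci, with a median log2 ratio of -0.22 against -0.01 for all loci. At P6, 46 of 55 were lower in SMA, against 39.9% of all loci, with a median of -0.23 against 0.07. In the P10 group labelled SMA, 26 of 55 were lower than in control, against 44.4% of all loci, with a median of 0.02 against 0.04. The summed level in SMA was 0.878, 0.909 and 0.989 times that in control at P2, P6 and P10.

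No gene passed the z test at any age. The count was 0 of 55 at P2, P6 and P10 alike, with 0.126%, 0.0458% and 0.0397% of all loci called. No gene had an unadjusted p under 0.05 at any of these ages, against 0.743%, 0.168% and 0.213% of all loci. The differences were small beside the errors, since the median error was 0.76 at P2, 0.73 at P6 and 0.79 at P10. Lower values in SMA at both P2 and P6 were found for 43 genes, against 24.5% of all loci, and at all 3 ages for 21 genes, against 6.86% of all loci. The P6 value does not depend on the ages whose markers stood apart, and its median was as far below 0 as that at P2. The change of the ratio from P2 to P10 was called for 0 of 55 genes, with 0.0659% of all loci called, and none had an unadjusted p under 0.05, against 0.938% of all loci. Its median was 0.19, and 42 of 55 were positive, against 53.9% of all loci.

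By class, the median SMA over control ratio at P6 was -0.11 for H1, -0.15 for H2a, -0.25 for H2b, -0.24 for H3 and -0.25 for H4. At P2 it was -0.19, -0.31, -0.25, -0.21 and -0.14 in that order. The P10 medians were -0.03, -0.13, -0.01, 0.11 and 0.09. All 10 H4 genes were lower in SMA at P2 and 9 of 10 at P6, but 3 of 10 at P10.

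**Figure D4:**
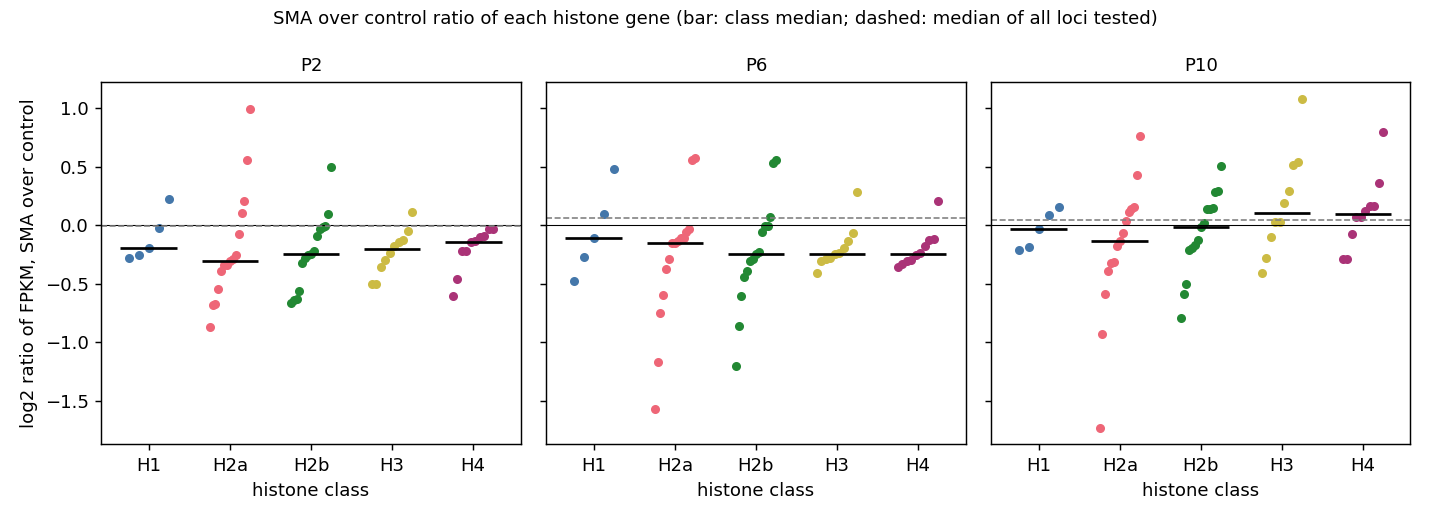
Log2 ratio of FPKM, SMA over control (y axis), of each of the 55 genes by histone class (x axis) at P2, P6 and P10, with a bar at the class median and a dashed line at the median of all loci tested. All 5 class medians are below 0 at P2 and P6, and at P10 they lie between -0.13 for H2a and 0.11 for H3.

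Across ages, limma gave a median SMA over control difference of -0.11, with 41 of 55 genes lower, against 39.3% of all loci. The number with an unadjusted p under 0.05 was 15, of which 14 were lower in SMA, against 0.929% of all loci in that direction. Without P2 the number in either direction was 6, without P6 it was 4 and without P10 it was 17. The share of all loci in these reduced fits is not given here, so these counts cannot be set against a background. No gene was called, with 0.00455% of all loci called, and the smallest adjusted limma p was 0.999.

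The 5 genes lower in SMA with the smallest p were Hist1h2bn, Hist1h2al, Hist1h2ah, Hist2h2ac and Hist2h3b. Hist1h2bn, an H2b gene, stood at 17.0, 24.1 and 13.6 FPKM in SMA cords at P2, P6 and P10, against 27.0, 29.9 and 19.3 FPKM in control cords. SMA was lower at each age, with a limma difference of -0.47 ± 0.10 (SE) and an adjusted limma p of 0.999. Of its 50-base stretches, 86.4% are shared with other genes, so its fragments may include those of other copies. Its divergent partner Hist1h2ak differed by -0.02 ± 0.09. Hist1h2al differed by -0.68 ± 0.15, Hist1h2ah by -0.52 ± 0.12, Hist2h2ac by -0.33 ± 0.08 and Hist2h3b by -0.35 ± 0.10. Each was lower in SMA at all 3 ages, as was Hist1h2bn. Choosing genes by a small limma p favours this, since the ages serve as replicates, so it adds no support. The errors given with these differences are from limma. The shared part was 67.6% for Hist1h2al, 90.7% for Hist1h2ah, 38.6% for Hist2h2ac and 79.7% for Hist2h3b. Hist1h2ah held only 1.59 to 3.64 estimated fragments per group. From the authors' intervals, its errors at P2, P6 and P10 were 1.975, 2.002 and 2.166, so its difference is not resolved. The same errors were 0.57, 0.54 and 0.59 for Hist1h2bn and 0.90, 0.76 and 0.93 for Hist1h2al. For Hist2h2ac they were 0.52, 0.54 and 0.56, and for Hist2h3b 1.20, 1.05 and 1.29. None of these genes had an unadjusted z test p under 0.05 at any age, so their differences are not resolved either.

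On the other side, the genes higher in SMA with the smallest p were Hist1h2ae, Hist1h2bc, Hist1h1c, Hist2h2be and Hist2h2aa1. Hist1h2bc differed by 0.33 ± 0.13, and its values were higher in SMA at P2 and P6 but not at P10. Hist1h2ae differed by 0.32 ± 0.13, with values of 6.32, 5.98 and 3.44 FPKM in SMA cords, against 4.29, 4.02 and 3.35 FPKM in control cords. Hist1h2ae and Hist1h2bg form a divergent pair with starts 176 bp apart, and Hist1h2bg differed the other way, by -0.21 ± 0.08. These are limma errors. From the authors' intervals, the errors at P2, P6 and P10 were 4.56, 5.23 and 4.89 for Hist1h2ae. For Hist1h2bg they were 1.80, 1.80 and 1.92, so the difference in sign is not resolved. Hist2h2be, known from mouse olfactory neurons as an H2b form of non-dividing cells, stood at 2.59, 2.29 and 2.09 FPKM in SMA cords, against 2.42, 1.58 and 1.70 FPKM in control cords. Hist1h1c differed by 0.22 ± 0.12 and Hist2h2aa1 by 0.25 ± 0.16. In the plot of 6 genes with their intervals, SMA and control overlapped at each age.

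Features of the transcripts did not separate the genes clearly. The P10 over P2 median in control was -0.64 for the 37 genes with a stem-loop match and -0.50 for the 18 without. In SMA it was -0.46 and -0.22. For the 30 genes with under 50% of their 50-base stretches shared it was -0.63 in control and -0.49 in SMA, and for the other 25 it was -0.61 and -0.22. The SMA over control median at P6 was -0.27 for those 30 genes and -0.15 for the other 25. At P2 the order was the reverse, with -0.14 and -0.33. None of these splits was tested.

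Genes that serve histone supply were set beside the family, from lists that were counted whole. None of the members of these lists was called in any z test comparison. Of the 17 loci measured for histone mRNA processing and transcription, the median P10 over P6 ratio was 0.01 in SMA and 0.08 in control. Slbp, which encodes the stem-loop-binding protein, stood at 19.3, 20.2 and 19.5 FPKM in SMA cords at P2, P6 and P10, against 20.3, 16.7 and 16.6 FPKM in control cords. Lsm11 stood at 18.1, 23.6 and 18.2 FPKM in SMA cords, against 21.7, 22.2 and 15.8 FPKM in control cords. Lsm10 stood at 3.56, 3.74 and 2.90 FPKM in SMA cords, against 4.53, 4.05 and 3.10 FPKM in control cords. These 2 subunits of the U7 particle had their lowest control values at P10, whereas Slbp was nearly level between P6 and P10.

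Npat, the coactivator that binds histone gene clusters, had 2 loci in the table. The more abundant stood at 7.16, 7.12 and 7.33 FPKM in SMA cords, against 6.51, 6.74 and 8.04 FPKM in control cords, and the other at 1.33, 1.12 and 1.17 FPKM in SMA cords, against 1.42, 1.05 and 0.942 FPKM in control cords. Casp8ap2, which encodes the histone pre-mRNA processing factor FLASH, stood at 4.10, 4.92 and 5.39 FPKM in SMA cords, against 5.00, 4.62 and 4.20 FPKM in control cords. At P6, 2 of the 17 loci of this list were lower in SMA, against 39.9% of all loci. Their median of 0.09 was close to the 0.07 of all loci.

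Among 13 histone chaperones measured, the median P10 over P6 ratio was -0.07 in SMA and 0.00 in control. The 10 replication-independent variants, which are made outside S phase, had medians of -0.20 in SMA and -0.17 in control. H3f3b, one of the 2 genes for H3.3, stood at 168, 144 and 107 FPKM in SMA cords, against 174, 136 and 106 FPKM in control cords. H3f3a, the other, stood at 148, 128 and 106 FPKM in SMA cords, against 163, 131 and 97.2 FPKM in control cords. Both were lower at each successive age, unlike the histone family, whose sum was highest at P6.

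Cell-cycle genes had age courses partly like that of the family. Of 24 S phase loci, the median P6 over P2 ratio was -0.05 in SMA and 0.00 in control, and P10 over P6 was -0.11 in SMA and -0.18 in control. Pcna, the sliding clamp of DNA replication, stood at 22.0, 20.9 and 18.8 FPKM in SMA cords, against 24.5, 22.8 and 18.1 FPKM in control cords. Of 17 mitosis genes, the median P6 over P2 ratio was 0.51 in SMA and 0.31 in control, and P10 over P6 was 0.00 in SMA and -0.43 in control. Ccna2, encoding cyclin A2, stood at 4.94, 7.48 and 5.74 FPKM in SMA cords, against 5.98, 8.05 and 6.21 FPKM in control cords. In control cords, 16 of 17 mitosis genes and 51 of 55 histone genes were lower at P10 than at P6. In SMA cords 8 of 17 mitosis genes and 51 of 55 histone genes were.

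**Figure D5:**
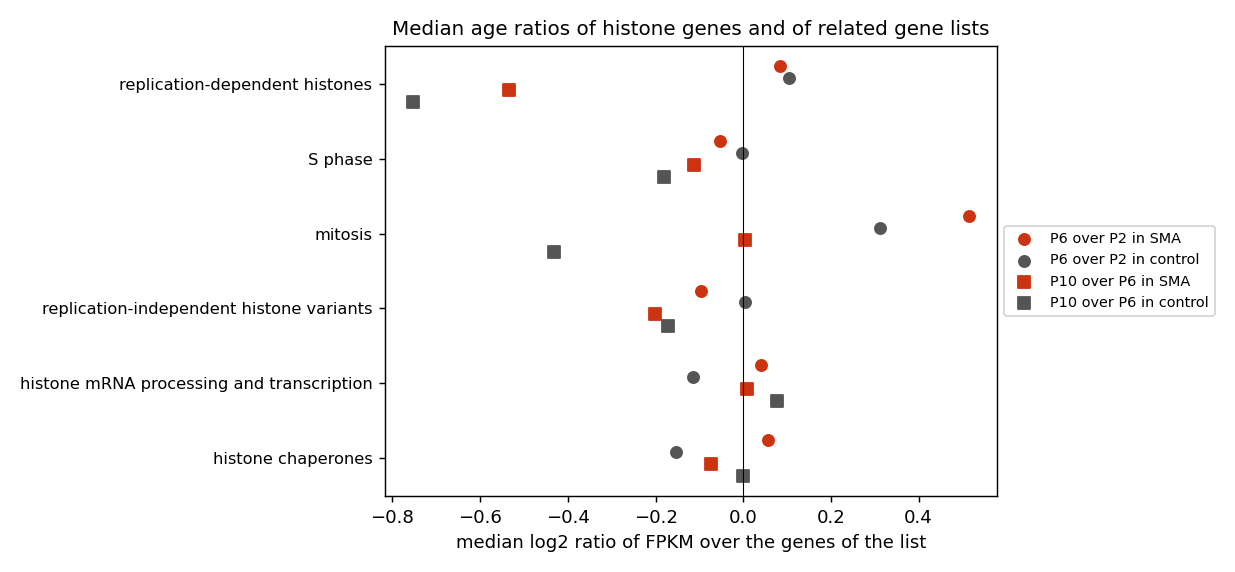
Median log2 ratio of FPKM (x axis) over the genes of the histone family and of 5 other lists (y axis), for P6 over P2 (circles) and P10 over P6 (squares) in SMA (red) and control (grey) cords. The histone family has the lowest P10 over P6 medians shown, -0.53 in SMA and -0.75 in control, and the mitosis list has the highest P6 over P2 medians, 0.51 in SMA and 0.31 in control.

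For SMA against control, the mitosis list followed the signs of the histone family. Its median was -0.41, -0.22 and 0.15 at P2, P6 and P10, with 15, 13 and 7 of 17 lower in SMA. The S phase list had medians of -0.10, -0.12 and 0.04. In whole tissue, fewer dividing cells and less histone RNA per cell cannot be told apart.

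Levels of other cell types also differed between groups. Neuroblast and immature neuron markers, 7 of 7 measured, summed to 470, 440 and 387 FPKM in SMA cords at P2, P6 and P10, against 570, 415 and 301 FPKM in control cords. Oligodendrocyte precursor markers, with 4 measured, summed to 62.6, 65.2 and 86.4 FPKM in SMA cords, against 33.5, 67.9 and 126 FPKM in control cords. The neuronal list was lower and the precursor list higher at P10 than at P2 in both genotypes. The 10 astrocyte and radial progenitor loci summed to 675 to 825 FPKM over all groups and the 7 microglia markers to 48.3 to 63.0 FPKM. Erythroid loci, 12 in number, summed to 531, 838 and 495 FPKM in SMA cords, against 783, 1008 and 750 FPKM in control cords, so their sum too was highest at P6 and lower in SMA at each age. By single loci, 9 of 10 tested were lower in SMA at P2, 10 of 12 at P6 and 5 of 11 at P10, where their median log2 ratio was 0.14. Fibroblast and meningeal markers summed to 99.0 to 193 FPKM in SMA cords, against 133 to 169 FPKM in control cords. Endothelial markers summed to 39.3 to 44.3 FPKM in SMA cords, against 35.8 to 55.0 FPKM in control cords. Motor neuron markers, 7 of 7 measured in this tissue, summed to 45.3 to 55.1 FPKM in SMA cords, against 61.1 to 64.4 FPKM in control cords. No measured marker was at 0 in all groups. The part of these cell types in the histone values was not tested.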

How the data were processed

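RNA-seq libraries of 18 labelled samples were processed by the authors on GRCm38. Per the submitters' processing notes, which give no role or order, the tools were Cuffdiff, Cufflinks 2.2.1, TopHat2 2.1.1, Bowtie2 2.2.4, FastQC and Picard. The annotation release, strand setting and normalization are not given in the sources used here. The authors' deposited tables hold FPKM per locus and group with the bounds of a model interval, and estimated counts of fragments per group with a model variance, per the file headers. The 3 libraries of a group are already combined, so depth per library is not analysed here. The expected counts are not whole and have near equal totals, so no count model was run on them.

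Within an age or genotype, the log ratio of FPKM between groups was divided by its error in a z test (two-sided). The error of a group was the distance from FPKM to its upper bound, divided by the normal quantile of a 95% interval. Loci tested had FPKM 1 or more in a compared group and FPKM above 0 in both. Across ages and genotypes, limma 3.58.1 in R 4.3.3 was fitted with a trend on log2(FPKM + 1), with genotype and age as factors, to loci at FPKM 1 or more in at least 1 group, leaving 2 residual degrees of freedom. Benjamini-Hochberg adjustment ran over all loci tested, and a call needed an adjusted p under 0.05. Robust standard deviations of z over loci were 0.237 to 0.470, below that of a standard normal, so this test calls few loci. Tested on simulated data for P10 against P2 in control over 21436 genes, it called 1% of the genes set to change 2-fold and 17% of the genes set to change 4-fold. The limma test, simulated for SMA against control over 20822 genes, called 42% and 87%. The z test simulation drew noise at the full interval error, a wider spread than z showed over the real loci. Its rates may therefore not carry over to these data. In the limma simulation the fold was set on FPKM + 1, so for low genes it stood for a larger change in FPKM.

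The stem-loop was searched in GENCODE M21 transcripts, and 50-base stretches shared with other genes were counted there. Promoters are from RefSeq. Other steps used scipy 1.17.1, pandas 2.3.3, numpy 2.4.6 and matplotlib 3.10.9 under Python 3.11.15.

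The genes, lists and tests were chosen with earlier results of these data known. The text names, per class, the 3 genes with the highest mean FPKM and the extremes of P10 over P2 in control, and, over all classes, genes higher at P10 in both genotypes, the 5 smallest limma p for SMA against control in each direction, Hist1h2bn and Hist1h2al. The contrasts of P6 against P2 and P10 against P6 across genotypes, and the values for genes with few shared 50-base stretches, were added after seeing the data. Alternatives are in the closing section.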

Additional observations from a re-analysis of the deposited data

How the results depend on the processing

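No paired analysis was possible because each deposited column combines the 3 libraries of a group and carries no replicate number, and for the same reason leaving out single replicates was not possible. No histone gene was called under any alternative run: other pseudocounts, other filters, groups rescaled to equal medians, an age left out, age as a linear trend, z tests from the counts, intervals that do not overlap, and adjustment over protein-coding loci only. The medians of the family kept their sign under every scale, filter and gene subset run. For SMA against control across ages, the sign of these uncalled differences changed in named genes, and the cause was not tested. Without P2 the difference was 0.0235 for Hist1h1d, 0.0038 for Hist1h2ak and 0.11 for Hist1h4k. Without P6 it was 0.0179 for Hist1h2ak, 0.0598 for Hist1h2bb, 0.0313 for Hist1h3c, 0.0615 for Hist1h3g, 0.0073 for Hist1h4a and 0.0112 for Hist1h4h. Without P10 it was 0.0372 for Hist1h1e, -0.0742 for Hist1h3h and -0.0120 for Hist3h2ba. With groups rescaled, Hist3h2ba was at -2.1e-05. Rescaling shifted groups by -0.03 to 0.05 on the log2 scale. In limma, P10 against P2 had 36 genes with an unadjusted p under 0.05, and 25 with age as a linear trend. The share of all loci for the linear trend is not given here. Depth limits the H2a class most, with the fewest fragments per gene.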

Other observations

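Of the histone loci outside the 55 genes, 3 that join neighbouring genes and 1 pseudogene were above FPKM 1, and all 4 were lowest at P10 in both genotypes. The first pair given here was highest at P6 and the other pair at P2. A locus that joins Hist1h2be, Hist1h4c and Hist1h4f stood at 146, 152 and 102 FPKM in SMA cords at P2, P6 and P10, against 155, 156 and 94.0 FPKM in control cords, close to the level of Hist1h4d. A locus that joins Gm42743 and Hist2h2bb stood at 49.0, 51.0 and 47.5 FPKM in SMA cords, against 58.7, 61.6 and 47.9 FPKM in control cords. Hist3h2a, joined with its neighbour Trim17, stood at 23.7, 19.8 and 14.3 FPKM in SMA cords, against 27.1, 21.1 and 13.0 FPKM in control cords, lower at each successive age as Hist3h2ba of the same cluster was. The pseudogene locus Hist3h2bb-ps stood at 8.33, 6.55 and 3.28 FPKM in SMA cords, against 11.1, 5.98 and 3.84 FPKM in control cords.

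The single genes below were named after their values were seen, and Hist1h4i and Hist1h2ad left the common age course in SMA. Hist1h4i, an H4 gene, had a P10 over P6 ratio of 0.45 ± 0.71 in SMA and -0.60 ± 0.80 in control. Hist1h2ad, an H2a gene near the threshold, had 0.45 ± 9.32 in SMA and -1.88 ± 7.72 in control. It held 2.40 to 7.79 estimated fragments per group, so the direction of its change is not resolved. Hist1h2ai, another H2a gene, stood at 3.57, 3.57 and 0.672 FPKM in SMA cords, against 4.27, 3.97 and 2.23 FPKM in control cords. Its value in the P10 group labelled SMA rests on 0.957 estimated fragments. Hist1h2ba, known as a testis form of H2b, stood at 3.80, 2.97 and 1.46 FPKM in SMA cords, against 4.43, 6.84 and 2.53 FPKM in control cords. Hist1h2ai and Hist1h2ba were lowest at P10 in both genotypes, as most of the family was. None of these genes passed the z test in any comparison.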
